A study of Mus musculus with 24 samples.

Results

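The inflammasome is a protein complex that turns on caspase-1, and 9 genes of this pathway and of the cytokines around it were followed across 4 tissues of mice with a point mutation in RAP1. The genes were Nlrp3, Aim2 and Nlrc4 (sensors), Pycard and Casp1 (the adaptor ASC and the protease caspase-1), Il1b and Il18 (cytokines that caspase-1 cuts into their active forms), and Il6 and Tnf (proinflammatory cytokines made without caspase-1). They were chosen by name, and every probe of the array whose RefSeq accession belonged to 1 of them was kept. This gave 10 probes, 2 for Nlrp3 and 1 for each other gene, among 55681 probes, of which 28331 named 21368 genes.

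Liver, brain, heart and muscle were taken from 6 male mice, so that each mouse gave 4 of the 24 single-colour (Cy3) arrays. The 3 Rap1 KI/KI mice were homozygous for Rap1 I312R, a substitution made with CRISPR/Cas9 at a position that RAP1 needs to bind its telomeric partner TRF2, and the 3 WT mice carried the normal allele. The line had been back-crossed 4 times to C57BL6 mice, named as C57BL/6N in the study's methods. In each genotype mouse 1 was 5 months old and mice 2 and 3 were 2 months old. Below, WT1, WT2 and WT3 stand for the WT animals, and KI1, KI2 and KI3 for the Rap1 KI/KI animals. The knock-in is present in every cell of the body and changes an amino acid without removing the transcript, so no probe level checks the genotype.

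Inflammasome sensors recognise danger or microbial signals in the cytosol. They then gather ASC, which recruits caspase-1, and caspase-1 processes pro-IL-1β and pro-IL-18 and opens the cell membrane through gasdermin D. NF-κB signalling, in which RAP1 has a role outside telomeres, is the classical inducer of Il1b, Nlrp3, Il6 and Tnf transcription. The comparison of genotypes asked whether transcripts of this pathway differed in unchallenged tissues of young mice that carry the altered RAP1. In bulk tissue, fewer cells of a type and less RNA per cell cannot be told apart.

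The bright end of the arrays differed in strength, with the 75th percentile of processed signal between 471 and 1389 intensity units, and 56.5% to 72.7% of probes lay well above background on an array. A level is the log2 processed signal minus that percentile, so that 0 marks the array's 75th percentile. Markers of the labelled tissues were in place by level. Hepatocyte markers averaged 8.07 to 8.87 in liver and at most 0.85 elsewhere. Neuron markers averaged 4.87 to 5.68 in brain and at most 1.93 elsewhere. Cardiomyocyte markers averaged 6.25 to 8.41 in heart and at most -1.09 elsewhere. Skeletal muscle fibre markers averaged 7.22 to 7.51 in muscle and at most -1.13 elsewhere. All 6 hepatocyte, cardiomyocyte and skeletal muscle fibre markers and all 7 neuron markers were well above background on every array of their own tissue. Some, such as Snap25, were so in all 4 tissues. Some arrays stood apart in markers of other cells. The brain of KI3 was high in macrophage and microglia markers, the hearts of KI1 and KI3 in adipocyte markers, the muscle of KI1 in neutrophil markers and the muscle of KI3 in neuron, astrocyte and microglia markers. The brain of WT1 was high in hepatocyte markers, and the WT hearts differed widely in cardiomyocyte and neutrophil markers. Their values stand beside the results they touch.

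The 4 genes with the greatest spread between tissues were Il18, Il1b, Il6 and Pycard, and the 250 bases before their annotated starts are shown for the reader who wants the regulatory context of these transcripts. The sequences are the RefSeq promoters of GRCm38.p6, a later build than the mm9 of the array design, and RefSeq promoters were found for 9 of 9 genes. Capitals mark matches to any of 5 motifs searched on both strands: the kappaB consensus bound by NF-κB, the TATA box TATAAA, the AP-1 motif TGANTCA, the GAS motif TTCNNNGAA and the interferon-response motif ISRE. No matches overlapped in these 4 windows.
Il18 (chr9:50554450-50554699, + strand): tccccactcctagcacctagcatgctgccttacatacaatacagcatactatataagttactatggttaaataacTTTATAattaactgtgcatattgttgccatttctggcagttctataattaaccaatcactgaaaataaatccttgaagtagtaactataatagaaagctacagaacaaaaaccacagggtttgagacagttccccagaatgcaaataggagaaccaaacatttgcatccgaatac
Il1b (chr2:129371140-129371389, - strand): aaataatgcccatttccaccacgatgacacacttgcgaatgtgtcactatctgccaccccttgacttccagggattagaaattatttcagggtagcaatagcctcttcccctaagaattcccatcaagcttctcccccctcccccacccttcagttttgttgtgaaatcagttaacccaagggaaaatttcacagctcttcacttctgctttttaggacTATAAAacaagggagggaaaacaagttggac
Il6 (chr5:30012864-30013113, + strand): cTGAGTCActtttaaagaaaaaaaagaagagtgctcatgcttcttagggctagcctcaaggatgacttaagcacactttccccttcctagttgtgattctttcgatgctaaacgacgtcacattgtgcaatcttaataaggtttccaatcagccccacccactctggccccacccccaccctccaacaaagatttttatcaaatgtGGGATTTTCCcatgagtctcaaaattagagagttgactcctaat
Pycard (chr7:127993868-127994117, - strand): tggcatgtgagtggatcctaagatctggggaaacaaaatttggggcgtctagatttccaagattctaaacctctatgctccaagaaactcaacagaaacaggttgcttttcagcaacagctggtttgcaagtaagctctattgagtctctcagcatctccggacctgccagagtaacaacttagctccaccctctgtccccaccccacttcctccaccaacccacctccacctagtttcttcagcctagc

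The Il6 window held a kappaB match (GGGATTTTCC) from base -44 to base -35, counted back from the annotated start, and an AP-1 match at its far end. The Il1b window held a TATA box from base -31 to base -26. In the Il18 window the TATA letters lay on the other strand at base -175 to base -170, and the Pycard window matched none of the 5 motifs. Of all 32851 promoter windows of this length, 7.25% held the kappaB consensus, 12.4% the TATA box, 6.75% the AP-1 motif, 7.02% the GAS motif and 2.98% the ISRE motif. These matches describe the letters of the windows and were not tested for binding.

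Across the 24 arrays, 4 of the 9 genes (Nlrp3, Pycard, Casp1 and Il18) were well above background on every array. Il1b was well above background on 22 arrays, Nlrc4 on 17, Aim2 and Il6 on 16 each and Tnf on 10. The limit of detection differed between tissues. The lowest level well above background lay between -5.99 and -5.02 on muscle arrays and between -6.76 and -5.52 on liver arrays. Nlrc4 was thus well above background at -5.59 in the liver of WT1 but not at -5.00 in the muscle of KI2. The plot of levels by tissue shows each mouse. Liver shared no slide with heart or muscle, and brain none with muscle, so tissue and slide cannot be told apart in those pairs. The other Nlrp3 probe was well above background on 2 liver arrays, 1 brain array and no heart or muscle array, and the brighter Nlrp3 probe stands for the gene below.

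**Figure D1:**
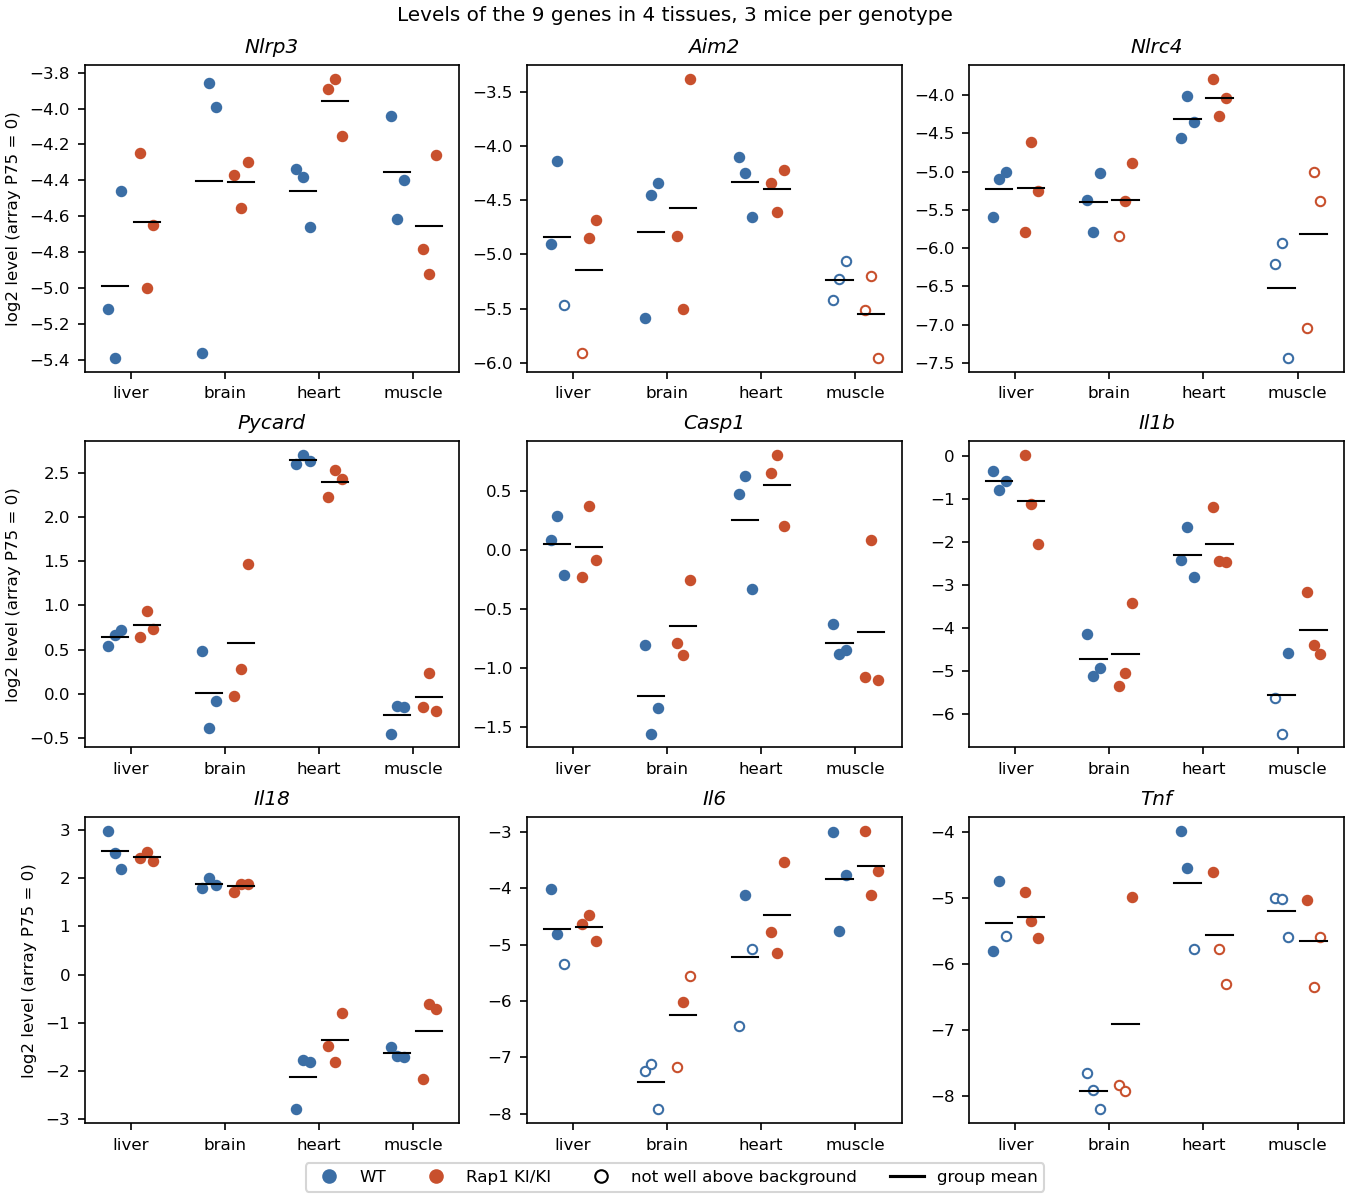
Levels of the 9 genes in 4 tissues. The vertical axis of each panel is the log2 level (0 is the array's 75th percentile), points are single mice (blue WT, orange Rap1 KI/KI), open points were not well above background, and bars are means of 3 mice. Il18 is at 1.73 or above in liver and brain and below 0 in heart and muscle, Pycard is highest in heart, and the genotypes overlap except for Nlrp3 and Pycard in heart.

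Il18, the cytokine that drives interferon-gamma production, was split between a pair of high tissues and a pair of low ones. Its level ran from 2.19 to 2.99 in the 6 livers (median 2.48), from 1.73 to 2.01 in brain (median 1.87), from -2.18 to -0.61 in muscle (median -1.60) and from -2.81 to -0.80 in heart (median -1.80). No liver or brain array overlapped any heart or muscle array. The level in liver was 19.1-fold that in heart (log2 difference 4.26, SE 0.25, limma adjusted p = 1.1e-11 over 42322 probes) and 15.0-fold that in muscle. Brain was 12.2-fold higher than heart and 9.62-fold higher than muscle. Liver exceeded brain by 0.64 (SE 0.25, limma adjusted p = 0.025), and this call was lost with quantile normalization (difference 0.14, limma adjusted p = 0.58), in the authors' value table (limma adjusted p = 0.37), and without WT1, WT2 or KI2 (limma adjusted p between 0.053 and 0.090). Heart and muscle did not differ past the threshold (limma adjusted p = 0.28, interval of the difference -0.87 to 0.18).

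Il1b, the fever-inducing cytokine of macrophages and neutrophils, was highest in liver. Its level ran from -2.05 to 0.01 in liver (median -0.70), from -2.83 to -1.20 in heart (median -2.45), from -5.35 to -3.42 in brain (median -4.99) and from -6.46 to -3.17 in muscle (median -4.60). Liver was 14.4-fold higher than brain (log2 difference 3.85, SE 0.42, limma adjusted p = 7.9e-08) and 15.9-fold higher than muscle, with no overlap between the mice. Heart held an intermediate level, 2.57-fold below liver (limma adjusted p = 0.0081), 5.62-fold above brain and 6.19-fold above muscle. Brain and muscle did not differ past the threshold (limma adjusted p = 0.78). Il1b was well above background on 4 of 6 muscles, so the folds over muscle rest partly on arrays at background. The gene was printed in 10 spots per array, whose median SD was 0.06 in liver and 0.33 in muscle, below the spread between mice of 0.71 and 1.13.

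Pycard, whose product ASC links sensors to caspase-1, was highest in heart. Its level was 2.52 ± 0.17 (SD, n = 6) in heart, 0.71 ± 0.13 in liver, 0.29 ± 0.65 in brain and -0.14 ± 0.22 in muscle. The lowest heart (2.23) lay above the highest array of any other tissue, which was the brain of KI3 (1.47). Heart was 3.51-fold higher than liver, 4.69-fold higher than brain and 6.32-fold higher than muscle (log2 difference 2.66, SE 0.20, limma adjusted p = 2.6e-09). Liver was 1.80-fold higher than muscle (limma adjusted p = 0.0011), while brain did not differ past the threshold from liver (limma adjusted p = 0.068) or muscle (limma adjusted p = 0.067).

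Casp1, the protease itself, followed the same order at its top, with 0.41 ± 0.41 (SD, n = 6) in heart and 0.04 ± 0.26 in liver, which did not differ past the threshold (limma adjusted p = 0.17). Muscle (-0.74 ± 0.44) and brain (-0.94 ± 0.46) were lower. Heart was 2.54-fold higher than brain (limma adjusted p = 3.3e-05) and 2.22-fold higher than muscle (limma adjusted p = 0.00041). Liver was 1.97-fold higher than brain (limma adjusted p = 0.00068) and 1.72-fold higher than muscle. Muscle and brain did not differ past the threshold (limma adjusted p = 0.45).

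All 3 sensors lay below the array's 75th percentile in the 4 tissues. Nlrc4, which responds to bacterial flagellin with the NAIP proteins, was highest in heart (-4.18 ± 0.28, SD, n = 6), 2.07-fold above liver (limma adjusted p = 0.00795) and 2.31-fold above brain (limma adjusted p = 0.0028). It was not well above background on any muscle array, so heart exceeded muscle by at least 2.16-fold and liver exceeded it by at least 1.05-fold. Brain exceeded muscle with limma adjusted p = 0.038 and no bound above 1 could be given. With normexp both directions turned, to -0.47 in liver minus muscle (limma adjusted p = 0.0013) and -0.70 in brain minus muscle (limma adjusted p = 1.7e-05), so the order of Nlrc4 between muscle and these tissues depends on the background correction. The call for brain over muscle was lost with quantile normalization and without WT1, WT3, KI1 or KI3 (limma adjusted p between 0.066 and 0.26), that for liver over muscle without WT3 (limma adjusted p = 0.11), and that for heart over muscle with normexp (limma adjusted p = 0.93). Aim2, the sensor of cytosolic DNA, was likewise not well above background on any muscle array and was at least 1.80-fold higher in heart (limma adjusted p = 0.016, and 0.063 without WT1). With normexp that difference turned to -0.18 and was no longer called (limma adjusted p = 0.31). Nlrp3, the sensor of cell damage, passed the test only for liver below heart (log2 difference -0.60, SE 0.23, limma adjusted p = 0.030), and that call was lost with quantile normalization (limma adjusted p = 0.081), with background correction by normexp (limma adjusted p = 0.057) and in the authors' value table (limma adjusted p = 0.052). It was also lost without WT2, KI2 or KI3 (limma adjusted p between 0.055 and 0.15). The order of Nlrp3 levels was heart, brain, muscle, liver, and no neighbours in that order differed past the threshold.

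Il6, a cytokine of acute-phase and metabolic signalling, was highest in muscle. Its level ran from -4.76 to -2.98 in muscle (median -3.72), from -5.34 to -4.01 in liver (median -4.72), from -6.45 to -3.53 in heart (median -4.92) and from -7.92 to -5.56 in brain (median -7.15), where 1 of 6 arrays was well above background. Muscle was higher than brain (limma adjusted p = 1.35e-06), by a fold that is not given because 5 of 6 brains were not well above background. Muscle was 2.19-fold higher than heart (limma adjusted p = 0.033) and 1.98-fold higher than liver (limma adjusted p = 0.040). Il6 was well above background on 4 of 6 hearts and 5 of 6 livers, so these folds rest partly on arrays at background. The call of muscle over liver was lost with quantile normalization (limma adjusted p = 0.089) and the calls over liver and heart were lost in the authors' value table (limma adjusted p = 0.12 and 0.0698). The call over liver was also lost without WT3, KI1 or KI3 (limma adjusted p between 0.078 and 0.16), and that over heart without WT1, WT3, KI1 or KI2 (limma adjusted p between 0.077 and 0.24). Liver and heart did not differ past the threshold (limma adjusted p = 0.77). The 6 adipocyte markers averaged between 1.06 and 5.37 in muscle, -4.07 and 3.51 in heart, -4.37 and -2.79 in liver, and -6.67 and -5.73 in brain, and their part in the Il6 levels was not tested.

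Tnf, the cytokine of the TNF receptors, was well above background on 5 liver arrays, 3 heart arrays and 1 array each of brain and muscle. Its lowest level was in brain, where 5 mice lay between -8.19 and -7.64 and KI3 at -4.99. Brain was lower than liver (limma adjusted p = 0.00030) and heart (limma adjusted p = 0.000185), by a fold that is not given because 5 of 6 brains were not well above background. Brain and muscle are not compared, since 5 of 6 arrays of each were at background. Liver, heart and muscle did not differ from each other past the threshold (limma adjusted p between 0.67 and 0.85).

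**Figure D2:**
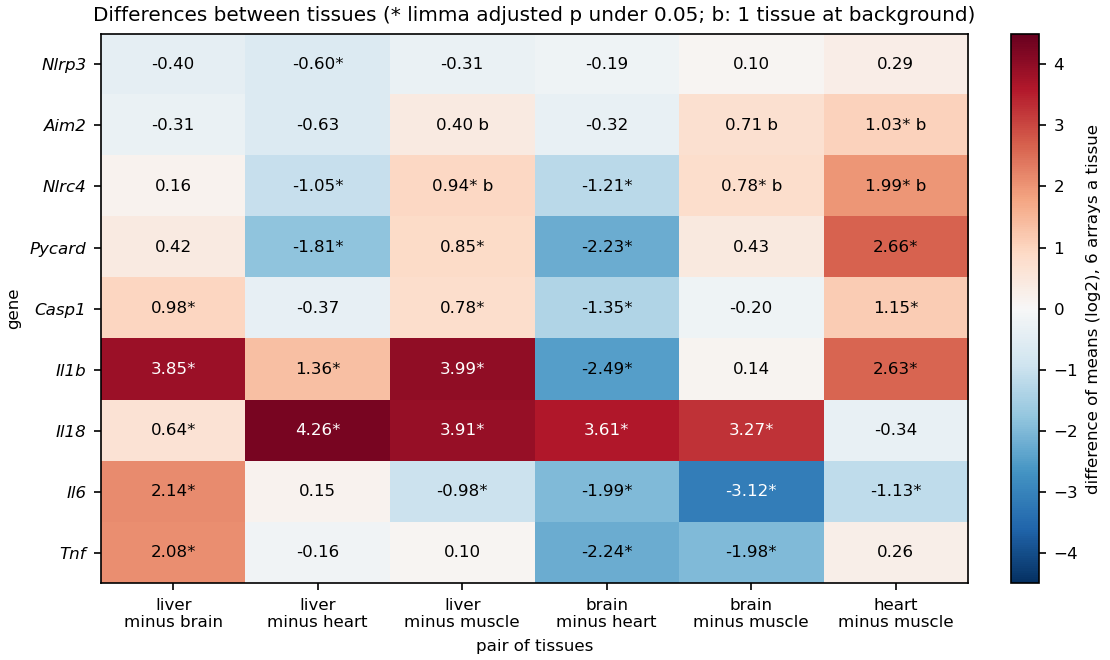
Differences between pairs of tissues for the 9 genes. Each cell gives the difference of mean log2 levels over 6 arrays per tissue (red, first tissue higher), a star marks limma adjusted p under the threshold, and b marks a tissue with no array well above background. Sizes for Il6 and Tnf against brain, where 1 of 6 arrays was well above background, are not measured folds. The deepest colours belong to Il18 and Il1b, up to 4.26 for Il18 in liver minus heart.

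In all, the 9 genes met the threshold in 33 gene and tissue-pair comparisons, with Tnf in brain against muscle, both mostly at background, counted among them. Between liver and brain 5 of 9 genes were called against 79.0% of probes, between liver and heart 5 against 66.7%, between liver and muscle 6 against 71.1%, between brain and heart 7 against 67.6%, between brain and muscle 4 against 70.1%, and between heart and muscle 6 against 43.4%. The share of these genes lay below that of all 42322 probes in 4 pairs and above it in brain against heart and heart against muscle, so the counts say nothing particular to these genes. The median of all probes was itself shifted, from -0.30 in brain minus muscle to 0.35 in liver minus brain. With normexp the median moved to -0.64 in brain minus muscle, -0.43 in liver minus muscle and -0.33 in heart minus muscle. Among the genes called between liver and muscle, the split of 5 higher in liver and 1 higher in muscle became 4 and 5 with normexp, between heart and muscle the split of 5 and 1 became 3 and 2, and between brain and muscle the split of 2 and 2 became 2 and 6. Among the differences called without normexp, those that turned were of dim genes. Nlrc4 became -0.47 in liver minus muscle and -0.70 in brain minus muscle, and Aim2 -0.18 in heart minus muscle. Differences not called without normexp were not followed in this way, although the splits show that some were called with it.

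The genes most like each of these, except Tnf, which was well above background on too few arrays, in level over the 24 arrays were found by Pearson's correlation among 16000 genes, as a description in which the points share mice and tissues. Il18 went with Sqle (r = 0.99), an enzyme of cholesterol synthesis, and Clmn (r = 0.98). Il6 went with Cidec (r = 0.92), a lipid-droplet protein of fat cells, and Cfd (r = 0.88), which encodes adipsin. Nlrc4 went with Il7r (r = 0.90), a lymphocyte receptor gene, and Pycard with Scgb1c1 and Plcg2 (r = 0.95 each). When each tissue's mean was removed first, Pycard went with Abi3, Ripk3 and Ifitm3 (r = 0.89, 0.89 and 0.88), and Casp1 with B2m (r = 0.84) and the interferon-inducible Ifi209 (r = 0.82). After the same removal, Pycard and Casp1 had r = 0.56 with each other. The brain of KI3 had the Pycard level furthest from the mean of its tissue (1.47 against 0.29). The correlations of Pycard were not computed without that array.

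Between the genotypes, none of the 9 genes differed at an adjusted p under 0.05 in any tissue by limma, nor did any other probe (0% of 35213 probes in liver, 37800 in brain, 34823 in heart and 32343 in muscle). At an unadjusted p under 0.05, 0 of 9 genes passed in liver, 0 of 7 tested in brain, 1 of 9 in heart (Nlrp3, higher) and 1 of 6 in muscle (Il1b, higher). Muscle Il1b would have met the filter on dim probes through the Rap1 KI/KI muscles alone, as would heart Il6. The share of all probes at that level was 2.13% in liver, 2.62% in brain, 7.51% in heart and 2.47% in muscle. The 3 mice of each genotype were completely separated in 0 genes in liver and brain, 2 in heart (Nlrp3 and Pycard) and 0 in muscle, where the same held for 5.85%, 7.74%, 14.7% and 6.45% of probes. The median difference over the tested genes was 0.01 in liver, 0.13 in brain, 0.27 in heart and 0.23 in muscle, beside 0.03, 0.01, -0.08 and -0.07 over all genes. With 3 mice against 3, the exact permutation test cannot give a p below 0.1.

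**Figure D3:**
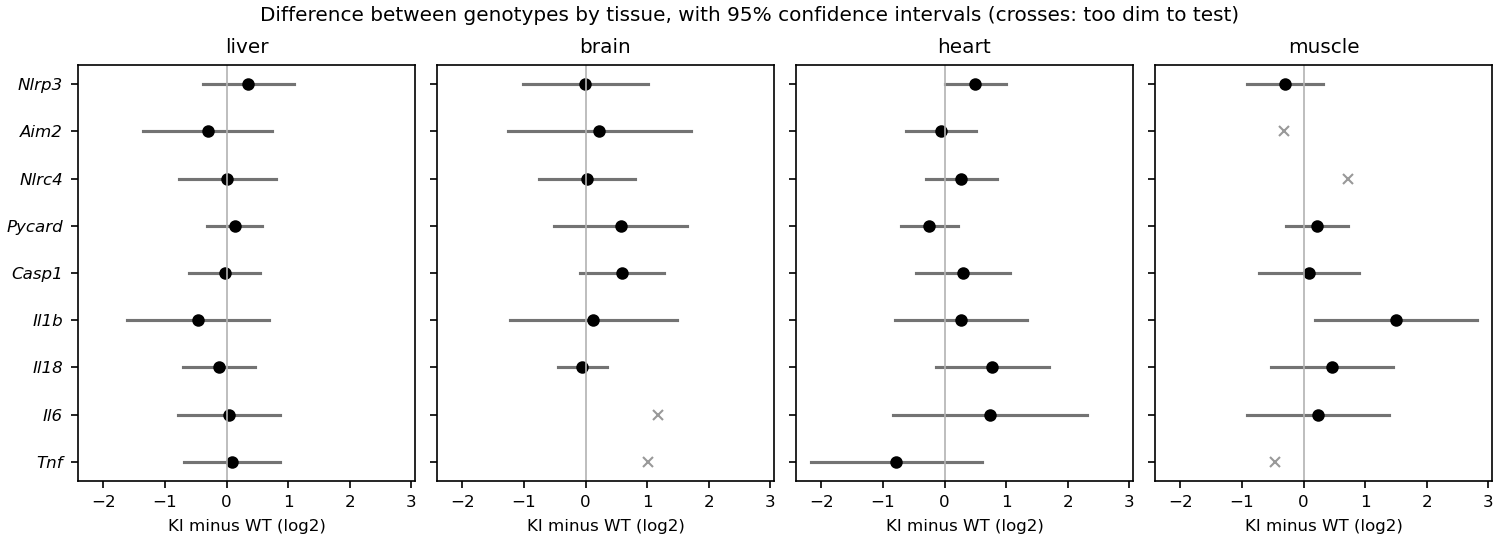
Genotype differences of the 9 genes by tissue. Points are KI minus WT on the log2 scale with 95% confidence intervals from limma, and crosses are genes well above background on too few arrays to be tested. The intervals of heart Nlrp3 and muscle Il1b lie above 0, and all other intervals hold 0.

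In heart, Nlrp3 was -4.34, -4.38 and -4.66 in WT1 to WT3 and -3.89, -3.84 and -4.15 in KI1 to KI3. Every Rap1 KI/KI heart lay above every WT heart. The difference was 0.50 (SE 0.21, limma adjusted p = 0.65, two-sided exact permutation p = 0.1), a 1.41-fold higher level. It was 0.49 among the 4 hearts on 1 slide and 0.51 in the pair on the other. It shrank to 0.33 with quantile normalization and to 0.07 with normexp. The other Nlrp3 probe, at background on all 6 hearts, gave no level to set beside it.

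Pycard lay the other way in the same hearts, with 2.60, 2.70 and 2.63 in WT1 to WT3 and 2.23, 2.53 and 2.43 in KI1 to KI3. Each WT heart was above each Rap1 KI/KI heart. The difference was -0.25 (SE 0.19, limma adjusted p = 0.73, two-sided exact permutation p = 0.1), with -0.27 on 1 slide and -0.20 on the other. Casp1, with 0.47, 0.63 and -0.33 in WT and 0.66, 0.81 and 0.20 in Rap1 KI/KI hearts, overlapped between genotypes (difference 0.30, SE 0.32). Leaving out 1 mouse gave 0.0034 (without WT3) to 0.48 (without WT2) for Casp1.

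Heart Il18 was -2.81, -1.79 and -1.82 in WT1 to WT3 and -1.48, -1.81 and -0.80 in KI1 to KI3. KI2 lay among the WT hearts and KI3 was highest. The difference was 0.77 (SE 0.39, limma adjusted p = 0.65), 0.49 without KI3, and between 0.44 (without WT1) and 0.995 (without KI2) with any 1 mouse left out. Heart Il6 followed a like pattern, lowest in WT1 (-6.45) and highest in KI3 (-3.53), with a difference of 0.73 (SE 0.66, limma adjusted p = 0.76). Its difference was 0.11 without WT1, 0.26 without KI3 and 1.28 without WT2. The 6 adipocyte markers averaged -4.07 in the heart of WT1, between -0.59 and -0.44 in those of WT2, WT3 and KI2, 2.38 in KI1 and 3.51 in KI3. Their log2 summed level spanned 0.21 to 4.94 in WT and 5.17 to 8.58 in Rap1 KI/KI hearts, with 5 of 6 markers well above background in the 4 lower hearts and 6 of 6 in KI1 and KI3. The brightest of them, Cfd, Cidec and Adipoq, averaged 3.67, 4.08 and 4.33 higher in Rap1 KI/KI than in WT hearts. The 7 neuron markers averaged -1.33 and -0.82 in the hearts of KI1 and KI3 and between -3.51 and -2.86 in the other 4. The 6 cardiomyocyte markers averaged 6.25 to 8.41 in WT and 7.78 to 8.11 in Rap1 KI/KI hearts. The 10 neutrophil markers averaged -3.29 to -0.25 in WT and -2.09 to -0.70 in Rap1 KI/KI hearts. The part of any of these cells in the heart levels was not tested. The other heart genes overlapped between genotypes, with differences of 0.27 for Il1b, 0.27 for Nlrc4, -0.06 for Aim2 and -0.78 for Tnf, whose interval ran from -2.17 to 0.60. With 1 mouse left out, Tnf gave -1.28 (without WT3, limma unadjusted p = 0.049, adjusted p = 0.50) to -0.39 (without WT1).

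In brain, Pycard was 0.49, -0.38 and -0.09 in WT1 to WT3 and -0.02, 0.28 and 1.47 in KI1 to KI3. The value of KI3 stood well above the other 5, which overlapped. The difference was 0.57 (SE 0.45, limma adjusted p = 1.00), 0.12 without KI3, 0.81 without WT1 and 0.87 without KI1. Casp1 was -0.81, -1.56 and -1.34 in WT1 to WT3 and -0.79, -0.89 and -0.26 in KI1 to KI3, with WT1 among the Rap1 KI/KI brains. Its difference of 0.59 (SE 0.28, limma adjusted p = 1.00, two-sided exact permutation p = 0.2) became 0.39 without KI3 and 0.80 without WT1 (limma unadjusted p = 0.026, adjusted p = 0.68). The 6 hepatocyte markers averaged -0.69 in the brain of WT1, against -3.86 to -2.91 in the others, with 6 well above background there and 4 to 5 in the others. Their log2 summed level spanned 4.44 to 5.98 in WT and 5.83 to 6.78 in Rap1 KI/KI brains. Ttr was by far the brightest in that sum, at 5.33 in WT and 6.18 in Rap1 KI/KI brains. The other markers averaged between -7.55 and -2.56 and were lower in Rap1 KI/KI brains, with differences of -1.11 (Alb) to -0.30 (Cyp2e1). The part of these markers in the Pycard and Casp1 differences was not tested. On the slide that held the 5-month pair, KI minus WT was -0.51 for Pycard and 0.02 for Casp1, against 1.11 and 0.87 among the 4 younger brains on the other slide. Age and slide cannot be told apart in brain.

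The brain of KI3 was also the highest of the 6 in Il1b (-3.42, others -5.35 to -4.15), Aim2 (-3.38, others -5.59 to -4.34), Nlrc4 (-4.88, others -5.84 to -5.02), Il6 (-5.56, not well above background) and Tnf, of which it was the only array well above background. Nlrp3 (-4.30) and Il18 (1.89) were within the range of the other brains. Its 9 macrophage and monocyte markers averaged 1.26, against -0.73 to -0.42 in the others, its 8 microglia markers 3.32 against 2.24 to 2.50, and its 6 astrocyte markers 3.79 against 2.77 to 3.33. All of these markers were well above background in it. The log2 summed level of the macrophage list spanned 6.43 to 6.58 in WT and 6.41 to 6.92 in Rap1 KI/KI brains, and that of the microglia list 6.75 to 7.27 and 6.76 to 7.43. By genotype, the astrocyte markers averaged 2.77 to 3.09 in WT and 3.11 to 3.79 in Rap1 KI/KI brains, without overlap. Their log2 summed level overlapped, at 5.75 to 6.15 in WT and 5.99 to 6.82 in Rap1 KI/KI brains. The brightest macrophage markers there, Itgam, Csf1r and Cd68, differed by -0.17, 0.38 and 0.77 between the genotypes. Its 8 lymphocyte markers averaged -4.08, against -4.04 to -3.71 in the others. Without KI3 the difference between genotypes went from 0.13 to -0.47 for Il1b and from 0.22 to -0.37 for Aim2. That of Il18 was -0.06 with an interval of -0.46 to 0.34. The part of these cells in the brain levels was not tested.

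**Figure D4:**
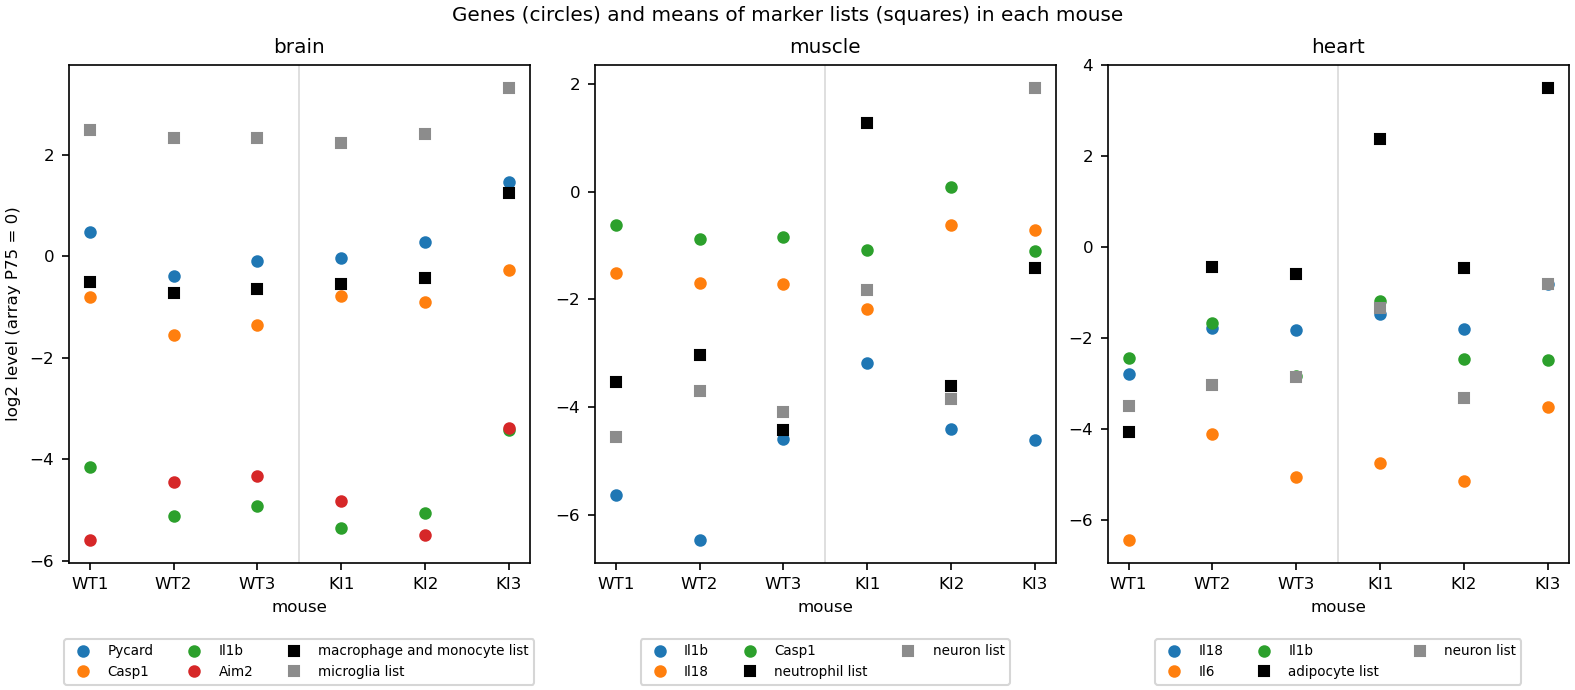
Selected genes (circles) and means of marker lists (squares) in each mouse, in brain, muscle and heart. The vertical axis is the log2 level with 0 at the array's 75th percentile. In brain, KI3 is highest for Pycard, Casp1, Il1b, Aim2 and both lists. In muscle, KI1 is highest for Il1b and the neutrophil list. In heart, KI3 is highest for Il18, Il6 and the adipocyte and neuron lists.

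In muscle, Il1b was -5.64, -6.46 and -4.58 in WT1 to WT3 and -3.17, -4.40 and -4.61 in KI1 to KI3. It was well above background in WT3 alone among WT and in all 3 Rap1 KI/KI muscles, and WT3 lay above KI3. The difference was 1.50 (SE 0.56, limma adjusted p = 0.94, two-sided exact permutation p = 0.2), 1.05 without KI1, 1.05 without WT2, 1.78 without KI3 and 1.99 without WT3 (limma unadjusted p = 0.0082, adjusted p = 0.90). With normexp it was 0.31, so the size of this difference at background level depends on the correction. The 10 neutrophil markers averaged 1.28 in the muscle of KI1 and between -4.42 and -1.43 in the other 5, and their log2 summed level spanned 0.72 to 1.98 in WT and 1.85 to 6.59 in Rap1 KI/KI muscles. All 10 were well above background in KI1 and KI3, and 5 to 9 in the others. The brightest of them, S100a9, Elane and S100a8, averaged 3.59, 0.29 and 3.72 higher in Rap1 KI/KI than in WT muscles. The 4 red cell markers averaged 2.86 to 3.41 in WT and 3.93 to 4.78 in Rap1 KI/KI muscles, without overlap. Their log2 summed level was also separated, at 7.52 to 8.35 in WT and 8.63 to 9.22 in Rap1 KI/KI muscles. The part of neutrophils or red cells in the Il1b level was not tested.

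Muscle Il18 was -1.52, -1.69 and -1.72 in WT1 to WT3 and -2.18, -0.61 and -0.72 in KI1 to KI3, so that Rap1 KI/KI muscles lay on both sides of the WT muscles (difference 0.47, SE 0.42, limma adjusted p = 0.94). Without KI1 the difference was 0.97 (limma unadjusted p = 0.0025, adjusted p = 0.51). In the muscle of KI3 the neuron markers averaged 1.93, against -4.54 to -1.82 in the others. There 6 of the 7 were well above background, as were 7 in KI1 and 2 to 3 in the other 4. Syt1 lacked a value among the Rap1 KI/KI muscles, and an average leaves a missing marker out. The log2 summed level of these markers spanned 3.57 to 4.21 in WT and 3.91 to 5.69 in Rap1 KI/KI muscles. The astrocyte markers averaged 1.38 in that muscle, against -2.46 to -1.38 in the others, and the microglia markers 0.75, against -1.09 to -0.34. Without KI3 the Il18 difference was 0.24, and the part of these cells in it was not tested. The Casp1 level of KI3 (-1.10) was close to that of KI1 (-1.07), whereas KI2 stood at 0.09. The other muscle genes tested overlapped between genotypes, with differences of -0.30 for Nlrp3, 0.21 for Pycard and 0.24 for Il6.

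In liver the genotypes overlapped for all 9 genes. Il18 was 2.99, 2.52 and 2.19 in WT1 to WT3 and 2.43, 2.55 and 2.36 in KI1 to KI3, a difference of -0.12 with an interval of -0.71 to 0.46. Pycard differed by 0.13, with an interval of -0.31 to 0.57, and Casp1 by -0.03, with an interval of -0.61 to 0.55. Il1b was -0.37, -0.80 and -0.60 in WT and 0.01, -1.12 and -2.05 in Rap1 KI/KI livers, with the highest and the lowest mouse in the same group (difference -0.46, interval -1.61 to 0.68). Without KI3 this difference was 0.03. The other 5 genes differed by -0.31 to 0.35.

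The genes left were measured with little precision. Brain Il6 was well above background in KI2 alone and brain Tnf in KI3 alone, so neither was tested. In muscle Aim2 and Nlrc4 reached that level on no array and Tnf on 1. Across the genes tested, the 95% interval of KI minus WT reached from 0.40 (brain Il18) to 1.58 (heart Il6) on either side of the estimate.

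The genotype difference was also compared between tissues. None of the 9 genes had an interaction of genotype with tissue at an adjusted p under 0.05 (limma F test, adjusted p = 1.00 each), nor did any probe (0% of 42322), and 0 of 9 reached an unadjusted p under 0.05, against 2.92% of probes. The lowest unadjusted p among the genes was that of Il1b (0.16, limma F test).

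Around the 9 genes, 57 more genes of the pathway were read from lists of sensors, of caspases and their regulators, of cytokine ligands and decoys, of receptors, and of receptor signalling. None differed at an adjusted p under 0.05 by limma in any tissue. At an unadjusted p under 0.05, 1 of 54 tested was higher in Rap1 KI/KI liver, 1 of 50 in brain and 3 of 50 in heart, and 1 of 47 was lower in muscle. These shares were close to the shares of all probes given above, and the gene in liver passed the filter on dim probes through the Rap1 KI/KI livers alone.

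In liver the gene was Il1r2, the decoy receptor for IL-1, which was well above background in no WT and all 3 Rap1 KI/KI livers and was at least 1.51-fold higher (limma adjusted p = 1.00), a difference that its selection favours. In brain it was Ninj1, which ruptures the membrane of dying cells, with a difference of 0.54 (SE 0.21, limma adjusted p = 1.00). In heart Il18r1, the receptor chain that binds IL-18, differed by 1.31 (SE 0.33), the sensor Nlrp1b by 0.67 (SE 0.20) and Casp12 by 0.72 (SE 0.28), each with limma adjusted p = 0.65 and with no overlap between genotypes. In muscle Panx1, a channel that releases ATP, differed by -0.78 (SE 0.32, limma adjusted p = 0.94).

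The brightest genes of each list, among those tested in all 4 tissues, gave differences of both signs. The sensors Naip5, Nlrp1a, Nod1, Nlrx1 and Naip2 ran from -0.45 (Nlrx1 in muscle) to 1.05 (Naip2 in brain), and the regulators Ninj1, Txnip, Nek7, Panx1 and Gbp2 from -0.78 (Panx1 in muscle) to 0.72 (Gbp2 in brain). The ligand Il33 and the decoy Il18bp ran from -0.47 (Il18bp in heart) to 0.82 (Il33 in heart). The receptors Il6st, Tnfrsf1a, Il6ra, Il1r1 and Il1rap ran from -0.59 (Il6ra in liver) to 0.99 (Il1r1 in brain), and the signalling genes Stat3, Jak1, Irak2, Traf2 and Adam10 from -0.38 (Stat3 in liver) to 0.48 (Stat3 in brain). Of these genes, Ninj1 in brain and Panx1 in muscle reached an unadjusted p under 0.05, as given above.

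By list, the widest median difference was in brain receptors (0.56 over 8 genes, 7 of them higher), followed by liver ligands and decoys (0.45 over 6 genes, all higher) and by caspases and regulators in brain (0.36 over 12 genes, 10 higher). The ligand and decoy list was dim in liver, with means of -4.39 to -4.06 in WT and -4.18 to -3.69 in Rap1 KI/KI mice. No list median was recomputed under another normalization or with a mouse left out. In heart and muscle, 11 of 15 signalling genes were lower in each tissue, with medians of -0.092 and -0.085. The median over all genes was 0.03 in liver, 0.01 in brain, -0.08 in heart and -0.07 in muscle. In brain, 9 of 50 pathway genes had all 3 Rap1 KI/KI mice above all WT mice and none had them below, beside 7.74% of all probes in either direction. They were Naip2, Casp4, Ninj1, Il1r1, Tnfrsf1a, Irak4, Tradd, Stat3 and Adam10, of which Casp4, Irak4 and Tradd were named after their values were seen. In the same brains the mean log2 level of the caspase and regulator list was 0.15 in KI3 and between -0.94 and -0.68 in the other 5, and that of the receptor list was -1.97 in KI3 and between -3.16 and -2.87. The part of this library in the brain medians was not tested.

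**Figure D5:**
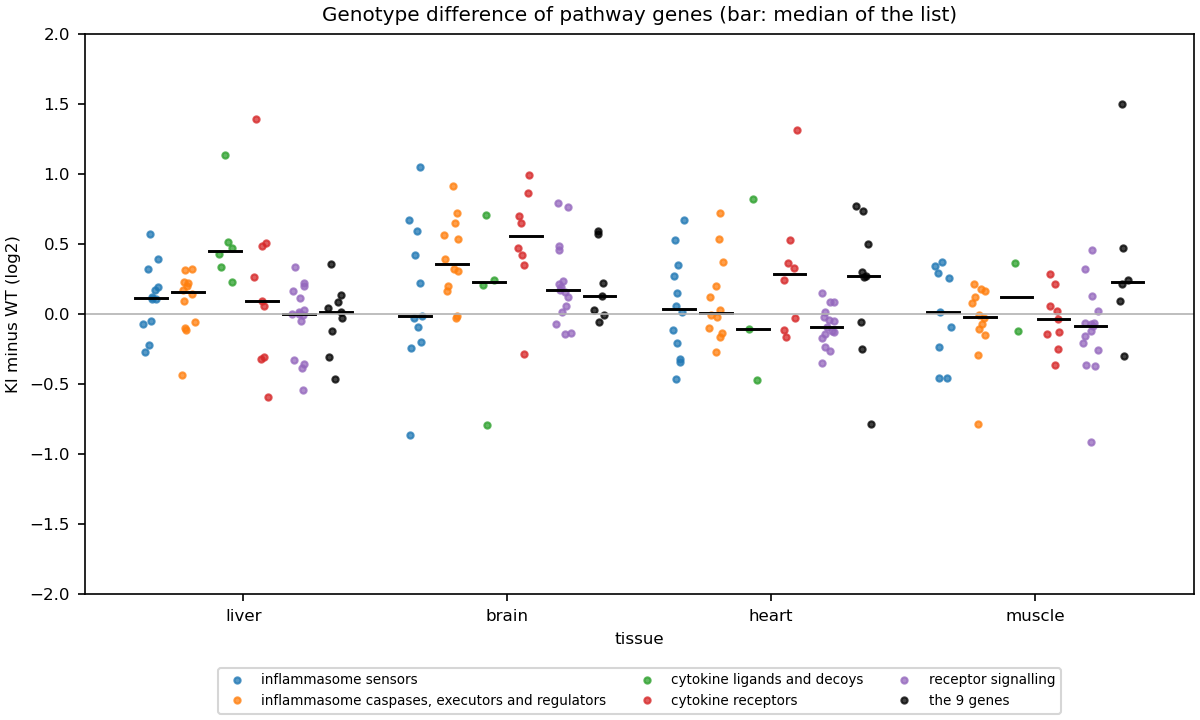
Difference between genotypes for the tested genes of 5 pathway lists and for the 9 genes, by tissue. Each point is a gene (KI minus WT, log2), and the bar is the median of its list. Most points lie within 1 of 0, and in brain the receptor list has the highest median, 0.56.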

How the data were processed

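Total RNA of 24 tissue samples was labelled with Cy3 and hybridised to single-colour Agilent mouse arrays. The deposited scanner files (Feature Extraction 12.0.3.1, array design on mm9) hold the processed signal, an intensity that the authors' software had background-subtracted and detrended, with flags per spot, and no normalization between arrays. The authors' value table holds a score, which matched the z-score of log10 processed signal within each array to 0.005. Control and outlier-flagged spots were left out and spots of a probe averaged. Levels are log2 processed signal minus the 75th percentile of the array. Genotypes were tested tissue by tissue over probes that at least 3 of 6 arrays measured well above background, and tissues and the interaction were tested over all 24 arrays as 8 groups, with limma 3.58.1 in R 4.3.3 and Benjamini-Hochberg adjustment over all probes tested; the methods name no test for the arrays. Single genes were also tested by exact permutation. A bound ("at least") is the mean of the measured tissue over the higher of the dim signal and the lowest signal well above background on that array. The 3 slides were 1 with liver and the 2 brains of the 5-month mice, 1 with 4 brains and 4 hearts, and 1 with 2 hearts and muscle.

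Named genes were the 9 genes, pathway genes at unadjusted p under 0.05, the 5 brightest genes of each pathway list, up to 3 of a marker list, and the 3 genes most correlated with each (fewer are printed). The members and lists were chosen with earlier results of these data known. Alternatives were quantile normalization, normexp (offset 50), the authors' value table, other filters, fits over 24 arrays, with the mouse as a block in some, age and slide terms, trended eBayes, averaged probes, and each mouse left out. Normexp used median signals, because mean signals were not in the files used here. Samples of the same mouse deviated from their group means with correlations between -0.22 and 0.26 (median 0.05 over 36 pairs of tissues). Mice are the replicates, and their number limits the precision.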

Additional observations from a re-analysis of the deposited data

How the results depend on the processing

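No gene reached an adjusted p under 0.05 between genotypes, or for the interaction, under any alternative. Genes at an unadjusted p under 0.05 numbered 1 in brain with normexp and without a filter on dim probes. In heart they numbered 0 with quantile normalization, normexp, the authors' value table, no filter, an age term and trended eBayes, and 2 with a slide term, which could not be fitted in liver or muscle, each on 1 slide. In muscle they numbered 0 with quantile normalization, normexp and the filter on all 6 arrays. Leaving out 1 mouse gave 0 to 1 in each of liver, brain, heart and muscle. Tissue calls numbered 19 in all from the KI arrays alone against 33, with 2 in liver minus brain, 3 in liver minus heart, 2 in liver minus muscle and 2 in brain minus muscle; fewer arrays enter that fit. From the WT arrays alone liver minus heart gave 3, and with normexp brain minus muscle gave 8. With the mouse as a replicate block (consensus correlation 0.026), no result changed its direction or its side of the threshold.

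Some differences changed sign, and with normexp 1 gene was higher and 8 lower in Rap1 KI/KI livers, against 5 and 4. With normexp, liver KI minus WT became -0.17 for Nlrp3, -0.27 for Nlrc4, -0.24 for Il6 and -0.24 for Tnf. That of Nlrc4 became -0.10 in brain and -0.012 in heart. Among the tissue differences called without normexp, Nlrc4 became -0.70 in brain minus muscle and -0.47 in liver minus muscle. Aim2 became -0.18 in heart minus muscle, and tissue differences not called without normexp were not followed. Brain Nlrp3 became 0.078 with quantile normalization and 0.00333 in the authors' value table, where liver Casp1 became 0.00333. The cause was not tested. Leaving out 1 mouse, KI minus WT spanned in liver -0.62 to 0.074 (Aim2), -0.29 to 0.30 (Nlrc4), -0.21 to 0.092 (Casp1), -0.996 to 0.034 (Il1b), -0.31 to 0.086 (Il18), -0.27 to 0.40 (Il6) and -0.13 to 0.40 (Tnf). In brain it spanned -0.49 to 0.27 (Nlrp3), -0.37 to 0.69 (Aim2), -0.22 to 0.26 (Nlrc4), -0.47 to 0.50 (Il1b) and -0.10 to 0.00054 (Il18). In heart it spanned -0.22 to 0.057 (Aim2) and -0.16 to 0.59 (Il1b), and in muscle -0.30 to 0.29 (Casp1) and -0.22 to 0.66 (Il6).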
